A study of Homo sapiens and Mus musculus with 27 samples.

Results

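The 9 genes described here encode 3 small heat shock proteins (HSPB1, HSPB8 and CRYAB) and the 6 BAG co-chaperones (BAG1 to BAG6). They were chosen by name, with earlier results of these data known. Each was found once in both human count tables of 78932 features and, as its mouse ortholog, in the mouse table of 25239 features. The study measured poly(A) RNA in 27 libraries, in 3 datasets of 9 libraries with 3 libraries per group. HCC1937, a human breast carcinoma line of the triple-negative class, was treated with 10 μM TM, with 10 μM AMD3100 or with vehicle. MDA-MB-231, a human triple-negative line of mesenchymal type, received 10 nM bortezomib together with 10 μM TM, 10 nM bortezomib together with 10 μM AMD3100, or vehicle. 4T1, a carcinoma line of mouse mammary gland, was grown as tumours in Balb/c mice that received bortezomib at 1 mg/kg every 4 days with TM in the drinking water at 0.05 mg/ml, the same bortezomib with AMD3100 at 5 mg/kg every 2 days, or vehicle. Bortezomib inhibits the proteasome and AMD3100 blocks the chemokine receptor CXCR4, while the labels do not spell out TM. Without a group on bortezomib by itself, the parts of bortezomib and of its partner drug in a change cannot be told apart in MDA-MB-231 or 4T1. The labels call the libraries of a group biological replicates without saying whether they were separate cultures or animals, so p-values measure the spread between these libraries.

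Small heat shock proteins bind unfolding proteins without using ATP and hold them until other chaperones act. Typical BAG proteins dock on HSP70 through their BAG domain and speed the release of its nucleotide and client, and family members steer clients to different fates. BAG1 carries a ubiquitin-like domain that brings HSP70 to the proteasome, whereas BAG3 binds HSPB8 and HSP70 and hands ubiquitinated clients to selective autophagy with the receptor SQSTM1, a route used when the proteasome is blocked or muscle is strained.

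Library depth ranged over 35981504 to 50735374 counts. Replicate 1 of HCC1937 under AMD3100 stood apart, with 20639 genes carrying a count, against at least 29335 in the other HCC1937 libraries, and with 19.9% of its counts on mitochondrial genes, against at most 11.6% in the others. The tests within HCC1937 and those between the lines are therefore also given without it. The libraries labelled HCC1937 held KRT8 at 1087 to 1885 CPM (counts scaled to library size) but EPCAM at no more than 0.558 CPM, KRT5 at no more than 0.103 CPM and CDH1 at no more than 1.92 CPM, so defining epithelial markers of that line were near 0. The MDA-MB-231 libraries held VIM at 881 to 982 CPM and CDH1 at no more than 0.159 CPM. VIM was also present in the HCC1937 libraries, at 282 to 814 CPM. Of the other mesenchymal markers, SNAI2 and ZEB1 averaged 1.30 and 5.71 CPM in MDA-MB-231, against 19.4 and 13.3 CPM in HCC1937. CDH2 was near 0 in both lines. The keratin KRT19 was at 79.7 to 143 CPM in MDA-MB-231 and at no more than 0.667 CPM in HCC1937. KRT8 and KRT18 averaged 1615 and 594 CPM in HCC1937, against 351 and 193 CPM in MDA-MB-231. KRT8, KRT18 and VIM thus went with an epithelial HCC1937 and a mesenchymal MDA-MB-231, while SNAI2, ZEB1 and KRT19 went the other way. As a set these markers did not sort the lines. The HCC1937 ranges and averages include replicate 1 under AMD3100. The 4T1 tumours held tumour, stromal and immune RNA, and in such bulk samples fewer cells of a type and less RNA per cell cannot be told apart. 1 vehicle tumour is labelled in part as human MDA-MB-231, and its title was followed in keeping it as 4T1.

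HSPB8, BAG3, HSPB1, BAG1 and BAG6 rose and BAG5 fell in MDA-MB-231 under bortezomib with either partner drug. In HCC1937, TM alone raised HSPB8 and CRYAB, while AMD3100 changed none of the 9 genes beyond the threshold. No change was detected in the 4T1 tumours. A gene was called changed at an adjusted p under 0.05 in edgeR's quasi-likelihood test, with Benjamini-Hochberg adjustment over all tested genes, and every adjusted p in the report is from that test unless another is named. Where the libraries of groups are said to overlap or to lie apart, the share of all genes lying apart was not counted. No call rests on it.

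**Figure D1:**
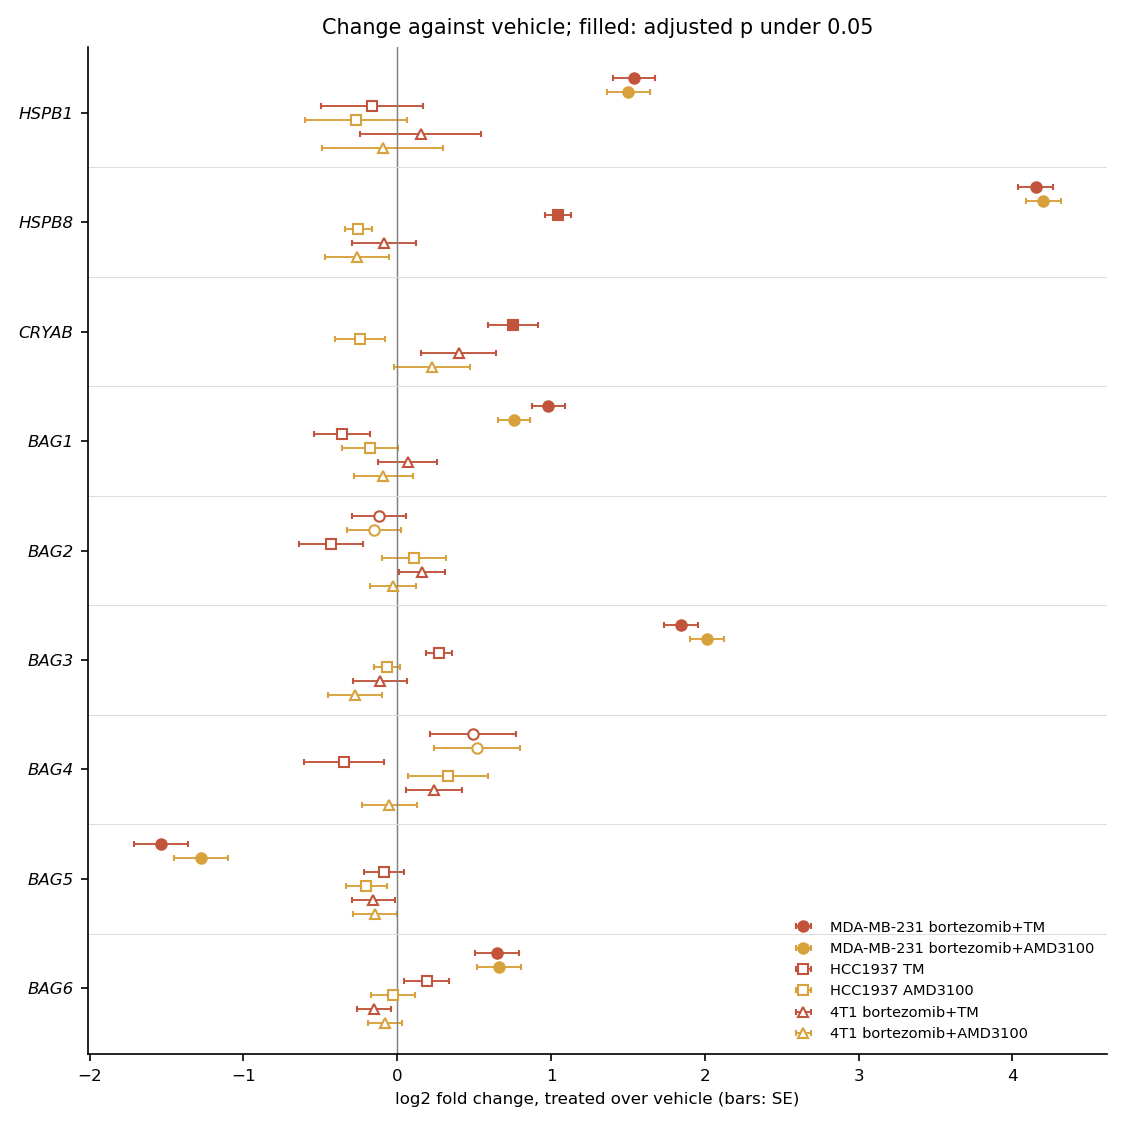
Log2 fold change of each gene in the 6 comparisons of a treated group with its vehicle group (x axis, log2). Bars are SE, and filled points mark an adjusted p under 0.05. HSPB8 lies farthest to the right, at 4.15 under bortezomib with TM and 4.20 under bortezomib with AMD3100 in MDA-MB-231, and BAG5 lies left of 0 in both, at -1.53 and -1.28.

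In MDA-MB-231, 6 of the 8 tested genes were called under bortezomib with TM, where 51.7% of all 16498 tested genes were called, and 6 of 8 under bortezomib with AMD3100, where 46.5% were called. The 2 comparisons share their vehicle libraries, so their values are given side by side and not as support for each other. The gene left out of the test, CRYAB, is alpha-B-crystallin, a chaperone abundant in lens and muscle. It had 4, 2 and 10 counts under bortezomib with TM, 10, 4 and 10 counts under bortezomib with AMD3100, and 8, 0 and 0 counts in vehicle cells, too few to tell the groups apart.

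HSPB8 (ENSG00000152137, chr12:119178642-119221131 on GRCh38, plus strand) encodes the small heat shock protein that works as the partner of BAG3. Its level was 106.8, 111.1 and 99.9 CPM under bortezomib with TM, 103.7, 108.0 and 116.8 CPM under bortezomib with AMD3100, and 6.33, 5.90 and 5.63 CPM in vehicle cells. All 6 treated libraries lay far above all 3 vehicle libraries. The log2 fold change was 4.15 (SE 0.11, adjusted p = 7.16e-10) with TM and 4.20 (SE 0.11, adjusted p = 6.52e-10) with AMD3100.

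HSPB1 (ENSG00000106211, chr7:76302544-76304295, plus strand) encodes HSP27, a widely expressed small heat shock protein that also guards the actin cytoskeleton. It had 526, 579 and 416 CPM under bortezomib with TM, 464, 481 and 537 CPM under bortezomib with AMD3100, and 171, 200.4 and 152 CPM in vehicle cells. The treated and vehicle libraries did not overlap. The log2 fold change was 1.54 (SE 0.14, adjusted p = 3.36e-06) with TM and 1.504 (SE 0.14, adjusted p = 5.04e-06) with AMD3100.

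BAG3 (ENSG00000151929, chr10:119651370-119677819, plus strand), the HSP70 co-chaperone of the autophagy route, was at 431, 371 and 375 CPM under bortezomib with TM, at 420.2, 424 and 482 CPM under bortezomib with AMD3100, and at 110.8, 119 and 97.9 CPM in vehicle cells. Every treated library exceeded every vehicle library. The log2 fold change was 1.84 (SE 0.11, adjusted p = 1.53e-07) with TM and 2.02 (SE 0.11, adjusted p = 1.05e-07) with AMD3100.

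BAG1 (ENSG00000107262, chr9:33247820-33264720, minus strand), which links HSP70 to the proteasome, rose less. It had 182, 193 and 157 CPM under bortezomib with TM, 146, 156 and 154 CPM under bortezomib with AMD3100, and 84.7, 98.8 and 85.7 CPM in vehicle cells. The groups did not overlap, and the log2 fold change was 0.98 (SE 0.11, adjusted p = 1.36e-05) with TM and 0.76 (SE 0.11, adjusted p = 0.000124) with AMD3100.

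BAG6 (ENSG00000204463, chr6:31639028-31652705, minus strand) encodes the scaffold that captures stray membrane proteins for insertion or degradation. Its level was 944, 800.0 and 704 CPM under bortezomib with TM, 785, 751 and 935 CPM under bortezomib with AMD3100, and 506, 611 and 446 CPM in vehicle cells. The lowest treated library was above the highest vehicle library. The log2 fold change was 0.65 (SE 0.14, adjusted p = 0.00245) with TM and 0.66 (SE 0.14, adjusted p = 0.00246) with AMD3100. The call with TM depended on how the libraries were scaled.

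BAG5 (ENSG00000166170, chr14:103556544-103562831, minus strand) encodes a protein with several BAG domains that restrains the ubiquitin ligase parkin. It was the gene of the family that fell. It had 10.2, 9.77 and 13.8 CPM under bortezomib with TM, 13.2, 13.9 and 13.3 CPM under bortezomib with AMD3100, and 30.8, 28.5 and 38.5 CPM in vehicle cells. All treated libraries were below all vehicle libraries, and the log2 fold change was -1.53 (SE 0.18, adjusted p = 2.09e-05) with TM and -1.28 (SE 0.17, adjusted p = 0.000103) with AMD3100.

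The other two were low and were not called. BAG2 (ENSG00000112208, chr6:57172326-57189833, plus strand), an inhibitor of the ubiquitin ligase STUB1, had 17.9, 21.2 and 24.4 CPM under bortezomib with TM, 19.9, 24.6 and 17.6 CPM under bortezomib with AMD3100, and 24.6, 19.6 and 24.8 CPM in vehicle cells. Its log2 fold change was -0.12 with TM (95% interval -0.50 to 0.26) and -0.15 with AMD3100 (95% interval -0.53 to 0.23). Of its exon bases, 42.7% overlap RAB23 on the opposite strand, and whether the counting used strand was not stated, so reads of the pair may be mixed. BAG4 (ENSG00000156735, chr8:38176533-38213301, plus strand), which binds the TNF receptor and keeps its death domain silent, had 8.82, 6.87 and 11.4 CPM under bortezomib with TM, 10.2, 10.8 and 6.52 CPM under bortezomib with AMD3100, and 6.31, 4.45 and 8.50 CPM in vehicle cells. The groups overlapped for both genes, and the log2 fold change of BAG4 was 0.49 with TM (95% interval -0.11 to 1.098) and 0.52 with AMD3100 (95% interval -0.09 to 1.13).

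**Figure D2:**
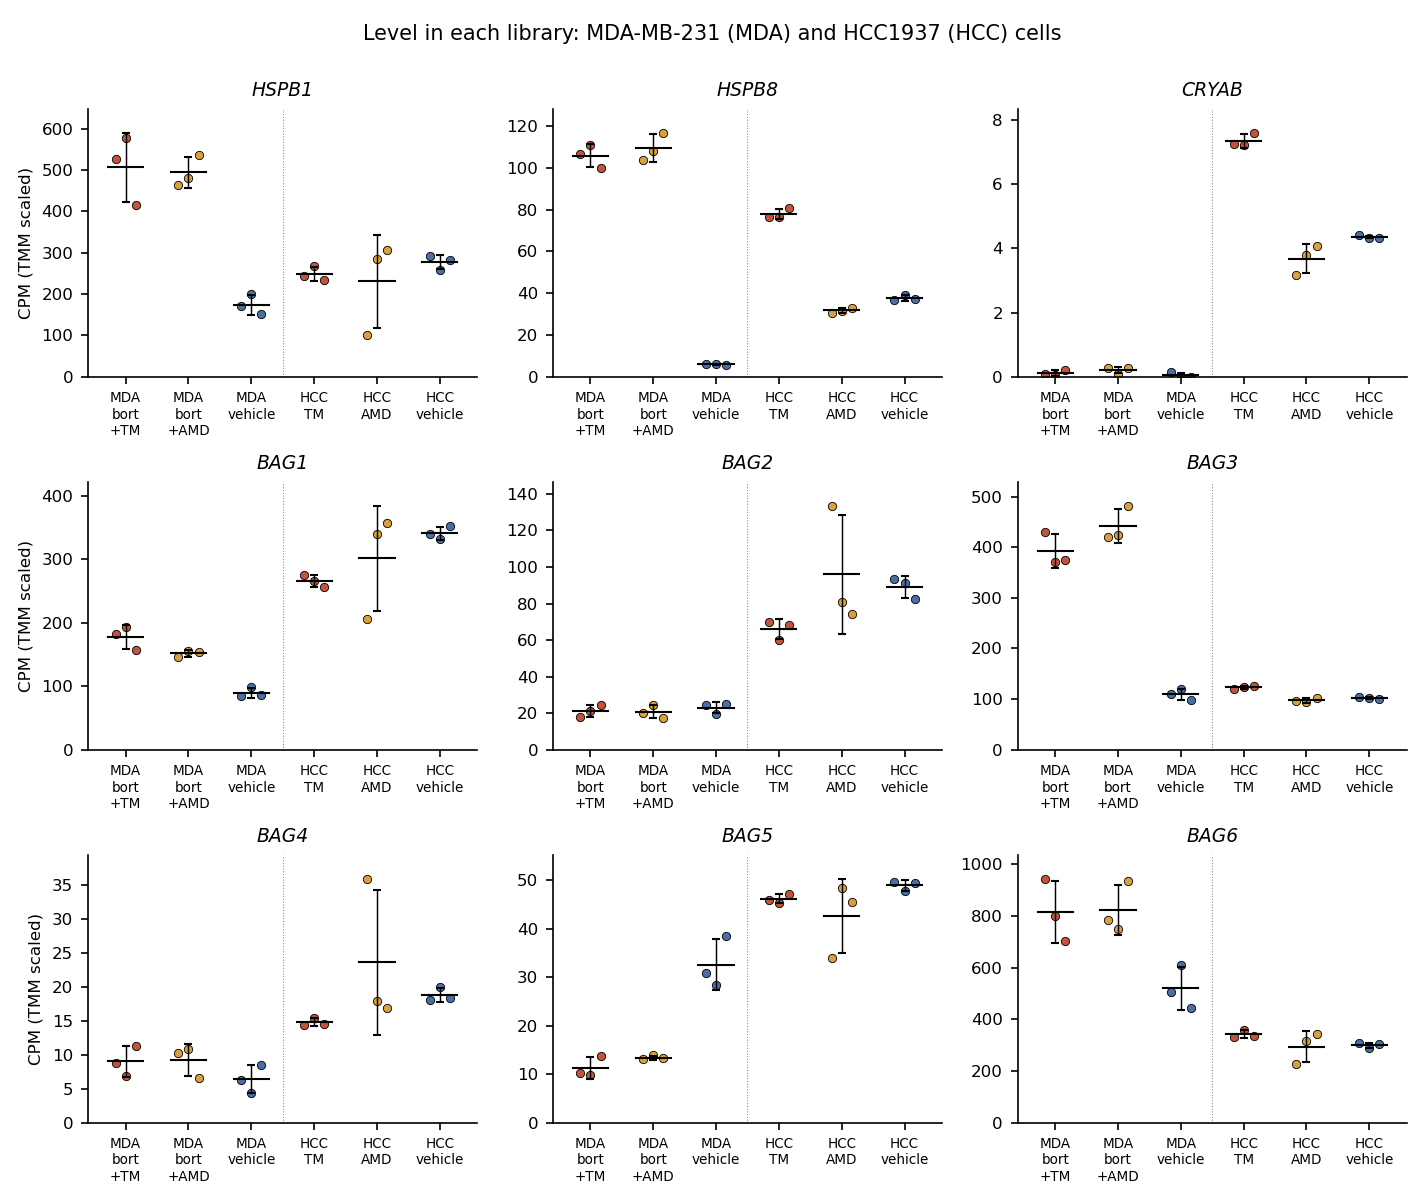
CPM of each of the 9 genes in every human library (y axis, linear scale), grouped by cell line and treatment. The group mean is a line, with SD as error bars. The 6 treated MDA-MB-231 libraries of HSPB8 sit between 99.9 and 116.8 CPM and the 3 vehicle libraries between 5.63 and 6.33 CPM, and the 3 HCC1937 libraries under TM sit between 76.5 and 80.7 CPM.

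Scaling mattered in this line, because its TMM factors were 0.874 to 0.945 in treated libraries and 1.14 to 1.25 in vehicle libraries. With library totals in place of TMM factors, an alternative chosen after seeing the data, the median log2 change of all tested genes was -0.51 with TM and -0.41 with AMD3100, against -0.09 and -0.05 with TMM. The share of all tested genes called higher and lower was 13.3% and 43.3% with TM, against 24.1% and 27.6% with TMM, and it was 12.8% and 38.2% with AMD3100, against 22.3% and 24.2%. HSPB8, BAG3, HSPB1, BAG1 and BAG5 kept their direction and call. BAG6 was at 0.23 (adjusted p = 0.105) with TM and at 0.30 (adjusted p = 0.0431) with AMD3100, and BAG2 was called lower, at -0.54 (adjusted p = 0.0370) and -0.52 (adjusted p = 0.0488). Relative to the median change of all genes, BAG6 was at 0.74 with TM under both scalings. Subtracting the median removes nearly all of a change in scaling for any gene, so this match was fixed in advance. It is no support for the call.

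The makeup of the family changed with these rises and falls. Levels were divided by the gene length deposited with the counts (CPM per kilobase) to compare genes with each other. For HSPB1 that length, 3141 bases, is longer than its GENCODE bounds of chr7:76302544-76304295, so its level per kilobase may be too low. BAG3 made up 47.1% (range 45.8% to 49.0%) of the summed level of the 6 BAG genes under bortezomib with TM and 50.3% (49.97% to 50.9%) under bortezomib with AMD3100, against 27.4% (26.6% to 28.2%) in vehicle cells. BAG5 made up 0.736% and 0.826%, against 4.46% in vehicle cells. The ratio of BAG3 to BAG1 averaged 5.75 ± 0.680 and 7.52 ± 0.548, against 3.15 ± 0.217 in vehicle cells (SD, n = 3 each). The ratio of HSPB8 to BAG3 was 0.207 ± 0.0199 and 0.190 ± 0.00469, against 0.0418 ± 0.00345 in vehicle cells (SD, n = 3 each). None of these ranges overlapped between treated and vehicle libraries.

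In order of level per kilobase, HSPB1 (161), BAG3 (143) and BAG6 (129) led under bortezomib with TM, and their libraries overlapped. Under bortezomib with AMD3100 the same genes led, BAG3 (161), HSPB1 (157) and BAG6 (130.2), again with overlap. HSPB8 came next, at 29.6 and 30.6 CPM per kilobase. In vehicle cells the order was BAG6 (82.3), HSPB1 (55.5), BAG3 (39.9), BAG1 (12.7), BAG5 (6.40), BAG2 (3.46), HSPB8 (1.66) and BAG4 (1.34), and of the neighbours in that order HSPB8 and BAG4 overlapped. The place of HSPB1 in these orders depends on its deposited length.

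**Figure D3:**
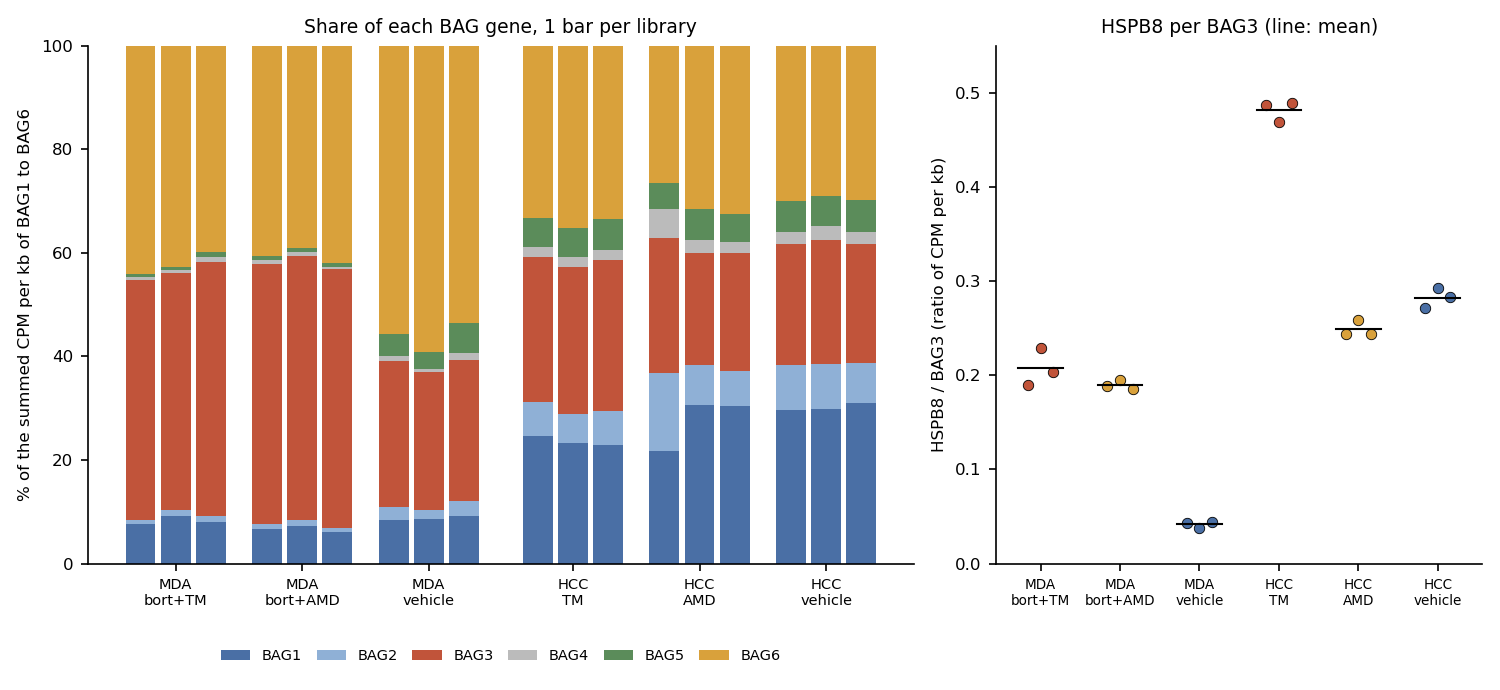
Left, share of each BAG gene in the summed CPM per kilobase of the 6 BAG genes (y axis, percent), as a stacked bar for each human library. Right, ratio of HSPB8 to BAG3 in each library, with the group mean as a line. BAG3 averages 47.1% and 50.3% in the treated MDA-MB-231 groups and 27.4% in their vehicle group. In HCC1937 it averages 28.4% under TM, 23.5% under AMD3100 (26.2%, 21.7% and 22.7% in its libraries) and 23.4% under vehicle.

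The promoters of HSPB8, HSPB1 and BAG3 are shown because these genes rose together, and that of BAG2 because it holds the same motif and was not called with TMM scaling. Each line gives the 250 bases before a RefSeq transcription start on GRCh38.p14, read 5′ to 3′ on the plus strand, with matches to GAANNTTC in capitals. These starts can differ from the gene bounds given above, which come from GENCODE. The whole HSPB8 window and part of the HSPB1 and BAG3 windows lie inside those bounds, so positions hold for the RefSeq start only. That motif is a pair of inverted heat shock element units, and it reads the same on both strands. The windows are chr12:119178681-119178930 for HSPB8, chr7:76302423-76302672 for HSPB1, chr10:119651130-119651379 for BAG3 and chr6:57172076-57172325 for BAG2.
HSPB8: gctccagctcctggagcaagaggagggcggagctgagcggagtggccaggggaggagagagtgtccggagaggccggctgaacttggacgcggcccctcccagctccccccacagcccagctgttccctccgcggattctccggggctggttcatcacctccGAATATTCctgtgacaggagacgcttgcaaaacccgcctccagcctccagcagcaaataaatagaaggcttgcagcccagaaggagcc
HSPB1: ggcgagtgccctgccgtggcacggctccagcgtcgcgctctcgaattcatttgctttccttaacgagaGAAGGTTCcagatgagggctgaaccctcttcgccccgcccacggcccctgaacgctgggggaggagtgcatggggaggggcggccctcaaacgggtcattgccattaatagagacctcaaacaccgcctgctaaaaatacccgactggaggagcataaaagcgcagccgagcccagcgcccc
BAG3: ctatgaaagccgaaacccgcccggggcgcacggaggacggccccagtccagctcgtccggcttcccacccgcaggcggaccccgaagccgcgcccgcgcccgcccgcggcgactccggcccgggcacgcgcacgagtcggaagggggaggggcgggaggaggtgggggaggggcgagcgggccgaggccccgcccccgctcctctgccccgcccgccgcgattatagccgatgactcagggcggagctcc
BAG2: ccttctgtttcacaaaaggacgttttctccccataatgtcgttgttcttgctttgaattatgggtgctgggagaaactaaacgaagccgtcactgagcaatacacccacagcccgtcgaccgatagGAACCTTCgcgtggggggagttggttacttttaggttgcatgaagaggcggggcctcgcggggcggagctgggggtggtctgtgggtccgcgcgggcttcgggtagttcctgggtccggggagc
The match lies at -88 to -81 from the start in HSPB8, at -182 to -175 in HSPB1 and at -124 to -117 in BAG2, and HSPB8 has another at 5 to 12 after the start. Of the 35116 promoter windows in the table, 5.78% held this motif in the bases before the start, and 6.77% when the bases after the start were included. 7 of the 9 genes had a window, BAG3, BAG1, BAG5 and BAG6 held no match, and the other arrangement of the pair, TTCNNGAA, was in 6.62% of windows before the start, 7.74% with the bases after it, and in none of these genes. A match describes letters in this window and nothing about binding.

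The 2 partner drugs were set against each other at the same bortezomib dose and at 10 μM each. None of the 8 tested genes was called for bortezomib with AMD3100 against bortezomib with TM, and 0% of all 16498 genes were. At an unadjusted p under 0.05 there were 0 of the 8 and 1464 of all genes, while DESeq2 called 52 genes and limma-voom 0, none of them among the 8. The log2 difference was 0.05 for HSPB8 (95% interval -0.17 to 0.26), 0.17 for BAG3 (-0.06 to 0.40), -0.04 for HSPB1 (-0.33 to 0.26), 0.01 for BAG6 (-0.30 to 0.32) and 0.26 for BAG5 (-0.12 to 0.64). BAG1 had a difference of -0.22 (95% interval -0.45 to 0.006, adjusted p = 0.564). Its 3 libraries under bortezomib with AMD3100 were all below the 3 under bortezomib with TM. The share of all genes separated in this way was not counted, so that is no result about BAG1. These intervals do not show that the partners act alike.

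Genes that work with the family moved in the same MDA-MB-231 libraries. Of 23 tested partners of the BAG3-HSPB8 autophagy route, 14 rose and 3 fell under bortezomib with TM (median log2 change 0.61), and 14 rose and 2 fell under bortezomib with AMD3100 (median 0.82). SQSTM1, the receptor that binds ubiquitinated cargo, averaged 2509 ± 269 CPM under bortezomib with TM and 2222 ± 147 CPM under bortezomib with AMD3100, against 225 ± 37.4 CPM in vehicle cells (SD, n = 3 each). GABARAPL1, an ATG8 protein of the autophagosome, averaged 397 ± 16.6 and 337 ± 11.2 CPM, against 4.30 ± 0.331 CPM in vehicle cells. HSPA1B, an inducible HSP70 that is nearly identical to HSPA1A so that reads may be split between them, averaged 5012 ± 367 and 4644 ± 421 CPM, against 87.4 ± 9.38 CPM. STUB1, the ligase that ubiquitinates HSP70 clients on this route, was among the genes that fell, with a log2 fold change of -0.77 in both comparisons.

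The heat shock list, genes of the transcription factor HSF1 and its targets, had 18 of 20 tested genes higher and 0 lower under bortezomib with TM (median 1.42), and 20 of 20 higher under bortezomib with AMD3100 (median 1.36). DNAJB1, a J-domain partner of HSP70, averaged 2800 ± 238 and 2582 ± 95.4 CPM, against 235 ± 24.2 CPM in vehicle cells. In the BAG6 complex list 9 of 12 rose and 1 fell with TM (median 0.98), and 8 rose and 1 fell with AMD3100 (median 1.01). SGTA, which passes membrane proteins to BAG6, averaged 711 ± 86.6 and 646 ± 44.6 CPM, against 300.2 ± 36.6 CPM. UBQLN2, a ubiquilin shuttle, was the gene of that list that fell, at -1.69 with TM and -1.19 with AMD3100. Of 8 HSP70 exchange factors outside the BAG family, 5 rose with TM and 6 with AMD3100 and none fell. Of 6 autophagy receptors, 5 rose in both comparisons and none fell. Of all tested genes 24.1% rose and 27.6% fell with TM (median -0.09), and 22.3% rose and 24.2% fell with AMD3100 (median -0.05). Without TMM factors, where the medians of all genes were -0.51 and -0.41, the 23 route partners had 12 rises and 6 falls with TM (median 0.19) and 12 and 4 with AMD3100 (median 0.46). The heat shock list then had 17 rises and 0 falls in both comparisons. The BAG6 list had 7 rises and 2 falls with TM (median 0.56) and 8 and 2 with AMD3100 (median 0.65). The exchange factors had 4 rises and 1 fall in both comparisons, and the receptors again 5 rises and 0 falls in both. None of the 7 other small heat shock genes in the table passed the filter on low counts in this line.

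In HCC1937 under TM alone, 2 of 9 genes were called, where 7.07% of 19461 tested genes were called, 2.96% higher and 4.11% lower (3.38% and 3.08% without TMM factors). HSPB8 had 76.8, 76.5 and 80.7 CPM under TM, against 36.8, 39.4 and 37.2 CPM in vehicle cells. The groups did not overlap, and the log2 fold change was 1.04 (SE 0.087, adjusted p = 0.000554). CRYAB (ENSG00000109846, chr11:111908565-111923722, minus strand) had 7.25, 7.21 and 7.60 CPM under TM, against 4.40, 4.33 and 4.34 CPM in vehicle cells. These groups did not overlap either, and the log2 fold change was 0.75 (SE 0.16, adjusted p = 0.0263). Of the exon bases of CRYAB 20.6% overlap HSPB2 on the opposite strand, so reads of the pair may be mixed. The call of CRYAB was lost when any 1 of the 6 TM and vehicle libraries was left out.

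BAG3 was at 120.5, 124.6 and 126.1 CPM under TM, against 103.7, 102.7 and 100.6 CPM in vehicle cells. The groups did not overlap, but the log2 difference of 0.27 (95% interval 0.084 to 0.46) missed the threshold (adjusted p = 0.0930). BAG1 was at 275, 266 and 257 CPM under TM, against 341, 332 and 352 CPM in vehicle cells, and BAG2 at 70.1, 60.0 and 68.3 CPM, against 93.6, 91.2 and 82.4 CPM. In both genes every TM library was below every vehicle library, with log2 differences of -0.36 (adjusted p = 0.318) for BAG1 and -0.43 (adjusted p = 0.291) for BAG2. HSPB1, BAG4, BAG5 and BAG6 had log2 differences between -0.35 and 0.19 and were not called. The TM libraries of BAG4 and BAG5 also lay below all vehicle libraries and those of BAG6 above them, while HSPB1 overlapped.

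The spread in these tests was set in part by replicate 1 under AMD3100, which shares the fit. Without it, 8 of 9 genes were called for TM against vehicle, beside 40.8% of 20398 tested genes, 19.4% higher and 21.4% lower. The log2 fold changes stayed within 0.01 of those above, at 1.04 for HSPB8 (adjusted p = 2.35e-14), 0.75 for CRYAB (adjusted p = 5.76e-05), 0.27 for BAG3 (adjusted p = 3.22e-05), -0.36 for BAG1 (adjusted p = 3.20e-08) and -0.43 for BAG2 (adjusted p = 1.49e-06). BAG6 was at 0.19, HSPB1 at -0.16 and BAG4 at -0.35, all called, and BAG5 at -0.09 was not (adjusted p = 0.249).

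Under AMD3100 alone, 0 of 9 genes were called against vehicle, and 0% of 19461 tested genes were. At an unadjusted p under 0.05 there were 951 genes, HSPB8 among them, while DESeq2 called 39 and limma-voom 0, none of the 9. HSPB8 had 30.7, 31.6 and 32.9 CPM under AMD3100, against 36.8, 39.4 and 37.2 CPM in vehicle cells. The AMD3100 libraries were all lower, with a log2 difference of -0.25 (95% interval -0.45 to -0.058, adjusted p = 0.882). Without replicate 1 the difference was -0.21 (adjusted p = 0.0472), the single call among the 9, beside 8.14% of 20398 genes. CRYAB also had all its AMD3100 libraries below those of vehicle and was not called. HSPB1 had 102, 285 and 306 CPM under AMD3100, against 292, 259 and 283 CPM in vehicle cells, so that replicate 1 was far below the other libraries. In BAG4 it was far above them, with 35.9, 17.996 and 16.9 CPM under AMD3100, against 18.1, 19.9 and 18.3 CPM in vehicle cells.

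Between AMD3100 and TM, both at 10 μM in HCC1937, 3 of 9 genes were called, beside 8.22% of 19461 tested genes, 4.61% higher and 3.6% lower (3.4% and 4.97% without TMM factors). HSPB8 was lower under AMD3100, with a log2 difference of -1.30 (SE 0.087, adjusted p = 0.000318). CRYAB had 3.17, 3.80 and 4.06 CPM under AMD3100, against 7.25, 7.21 and 7.60 CPM under TM, with a log2 difference of -0.999 (SE 0.16, adjusted p = 0.00884). BAG3 had 96.3, 93.5 and 103.0 CPM under AMD3100, against 120.5, 124.6 and 126.1 CPM under TM, with a log2 difference of -0.34 (SE 0.084, adjusted p = 0.0399). The AMD3100 libraries lay below the TM libraries in all 3 genes, but the calls of CRYAB and BAG3 were lost when any 1 TM library was left out, and that of BAG3 also without replicate 2 under AMD3100. In BAG2 and BAG4 the AMD3100 libraries lay above the TM libraries, and neither gene was called with all libraries. Without replicate 1 the differences were -1.25 for HSPB8, -0.88 for CRYAB and -0.31 for BAG3, all called, and 7 of 9 genes were called beside 36.5% of 20398. HSPB1 then turned to 0.27 (adjusted p = 0.000217), against -0.10 with all libraries, and BAG1 (0.41), BAG2 (0.25) and BAG4 (0.26) were the other calls.

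In HCC1937 under TM, 2 of the 23 tested autophagy route partners rose and 4 fell (median log2 change -0.15), and of 20 heat shock genes 0 rose and 1 fell (median -0.14). Of all tested genes 2.96% rose and 4.11% fell, with a median of 0.00. HSPA8, the constitutive HSP70, averaged 1120 ± 17.3 CPM under TM, against 1712 ± 13.9 CPM in vehicle cells, and HSPA1B averaged 123 ± 5.13 CPM under TM, against 192 ± 10.7 CPM. VPS18, a subunit of the complex that tethers vesicles to lysosomes, averaged 72.3 ± 2.75 CPM under TM, against 44.8 ± 1.61 CPM (SD, n = 3 each). Of the autophagy receptors TOLLIP and OPTN rose, by 0.68 and 0.57 on the log2 scale. In the BAG6 list UBQLN4 and GET1 fell, with log2 fold changes of -0.52 and -1.31, and of the HSP70 exchange factors and the 3 other small heat shock genes tested none was called. Without replicate 1 under AMD3100, where 19.4% of all genes rose and 21.4% fell, the route partners had 7 rises and 11 falls and the heat shock genes 2 and 10. The 6 autophagy receptors then had 4 rises and 1 fall, the 12 genes of the BAG6 list 3 and 2, the 8 exchange factors 2 and 2, and the 4 other small heat shock genes tested 1 and 0.

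The cell lines received different treatments, since MDA-MB-231 also had bortezomib, so line, dataset and bortezomib cannot be told apart. Tested in 1 fit over the 18 human libraries, the change in the TM arm differed between the lines in 5 of 9 genes, beside 21.6% of 21590 genes, 11.2% higher and 10.4% lower (4.51% and 20.9% without TMM factors). MDA-MB-231 minus HCC1937 was 3.16 for HSPB8 (SE 0.16, adjusted p = 4.28e-10) and 1.63 for BAG3 (SE 0.16, adjusted p = 1.13e-06). In the AMD3100 arm 6 of 9 differed, beside 19.5% of genes, 9.79% higher and 9.75% lower (5.26% and 16% without TMM factors). The difference was 4.47 for HSPB8 (SE 0.16, adjusted p = 6.53e-12) and 2.11 for BAG3 (SE 0.16, adjusted p = 7.89e-08). Without TMM factors the 5 calls of the TM arm kept their direction and call, at 2.63 for HSPB8 and 1.098 for BAG3, while in the AMD3100 arm BAG1 (0.61, adjusted p = 0.0539) and BAG6 (0.36, adjusted p = 0.221) were no longer called. Without replicate 1 of HCC1937 under AMD3100, 7 of 9 genes differed in the TM arm beside 32.6% of 22621 genes, and 6 of 9 in the AMD3100 arm beside 26.7%. The BAG6 call in the AMD3100 arm was lost in 9 of 18 alternatives. CRYAB, which passed the filter of this fit through HCC1937, was at 0.61 in the TM arm (95% interval -1.32 to 2.53, adjusted p = 0.721). In the AMD3100 arm it was at 2.30 (95% interval 0.39 to 4.22, adjusted p = 0.0892), not called here but called by DESeq2 (2.31, adjusted p = 0.00423) and limma-voom (3.35, adjusted p = 0.0144). Both values rest on the 8, 0 and 0 counts of its MDA-MB-231 vehicle libraries, and without the first of these they were 5.04 and 6.75 (adjusted p = 0.0113 and 0.000852).

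In vehicle cells 7 of 9 genes, CRYAB among them, differed between MDA-MB-231 and HCC1937, beside 62.6% of 21590 tested genes, 29.5% higher and 33% lower (23.5% and 40.5% without TMM factors), whose median log2 difference was -0.24 (-0.59 without TMM factors). BAG6 and BAG3 were higher in MDA-MB-231, with log2 differences of 1.41 (SE 0.16, adjusted p = 7.07e-07) and 0.71 (SE 0.11, adjusted p = 2.32e-05), against 1.06 and 0.36 without TMM factors, both called. Without replicate 1 of HCC1937 under AMD3100, 7 of 9 differed, CRYAB again among them, beside 70.4% of 22621 genes. HSPB8 was lower in MDA-MB-231, at -2.05 (SE 0.12, adjusted p = 5.98e-11), as were BAG2 (-1.33), BAG1 (-1.31) and BAG4 (-0.92). CRYAB was called lower too, but it passed the filter of this fit through HCC1937, where it was higher, so its call is no support. With at most 8 counts in a vehicle library of MDA-MB-231 its fold change also depends on the prior count. HSPB1 (-0.06, 95% interval -0.61 to 0.50) and BAG5 (0.03, 95% interval -0.30 to 0.37) were not called. In HCC1937 vehicle cells the order per kilobase was HSPB1 (88.5), BAG1 (48.3), BAG6 (47.4), BAG3 (37.4), BAG2 (13.4), HSPB8 (10.6), BAG5 (9.62), BAG4 (3.91) and CRYAB (0.993), where BAG1 and BAG6 overlapped. Under TM the order was HSPB1 (79.1), BAG6 (54.1), BAG3 (45.2), BAG1 (37.6), HSPB8 (21.8), BAG2 (9.94), BAG5 (9.06), BAG4 (3.07) and CRYAB (1.68), where BAG2 and BAG5 overlapped. These levels were scaled within each line.

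In the 4T1 tumours 0 of 9 genes were called in any of the 3 comparisons, and 0% of 15846 tested genes were. At an unadjusted p under 0.05 there were 688 genes for bortezomib with TM against vehicle, 1144 for bortezomib with AMD3100 against vehicle and 454 between the treated arms, and DESeq2 called 3, 17 and 6 genes and limma-voom 0. None of the 9 was among any of these. Hspb8 had 39.2, 53.1 and 70.4 CPM under bortezomib with TM, 39.7, 52.5 and 52.0 CPM under bortezomib with AMD3100, and 57.7, 64.0 and 51.2 CPM in vehicle tumours. The groups overlapped, and the log2 difference was -0.09 (95% interval -0.55 to 0.38) with TM and -0.26 (-0.73 to 0.20) with AMD3100, intervals that lie below the MDA-MB-231 values of 4.15 and 4.20. Bag3 had 58.3, 67.9 and 81.8 CPM under bortezomib with TM, 54.5, 73.5 and 58.2 CPM under bortezomib with AMD3100, and 79.3, 84.5 and 61.0 CPM in vehicle tumours. Its groups overlapped as well, with log2 differences of -0.11 (-0.51 to 0.28) and -0.27 (-0.67 to 0.12).

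Cryab, which MDA-MB-231 hardly expressed, had 14.3, 17.6 and 12.8 CPM under bortezomib with TM, 12.9, 13.5 and 13.2 CPM under bortezomib with AMD3100, and 11.1, 7.54 and 15.2 CPM in vehicle tumours. The log2 difference was 0.40 (95% interval -0.15 to 0.95) with TM and 0.23 (-0.32 to 0.78) with AMD3100. Hspb1 spread widely within groups, with 13.04, 36.8 and 16.6 CPM under bortezomib with TM, 15.2, 23.02 and 17.7 CPM under bortezomib with AMD3100, and 18.3, 13.8 and 27.6 CPM in vehicle tumours. Bag6 averaged 427 ± 43.7 and 448.5 ± 30.4 CPM in the treated groups, against 474 ± 18.4 CPM in vehicle tumours, and Bag1 averaged 127.6 ± 35.2 and 114 ± 14.5 CPM, against 122 ± 12.9 CPM (SD, n = 3 each). Bag5 averaged 58.4 ± 8.61 and 58.8 ± 2.97 CPM, against 65.0 ± 9.24 CPM, Bag2 42.7 ± 4.81 and 37.5 ± 5.68 CPM, against 38.2 ± 4.19 CPM, and Bag4 19.5 ± 2.33 and 16.01 ± 3.21 CPM, against 16.6 ± 1.51 CPM. Over the 3 comparisons the log2 differences of the 9 genes lay between -0.29 and 0.40. None of the genes in the route, heat shock, BAG6 complex, exchange factor and receptor lists was called in these tumours.

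**Figure D4:**
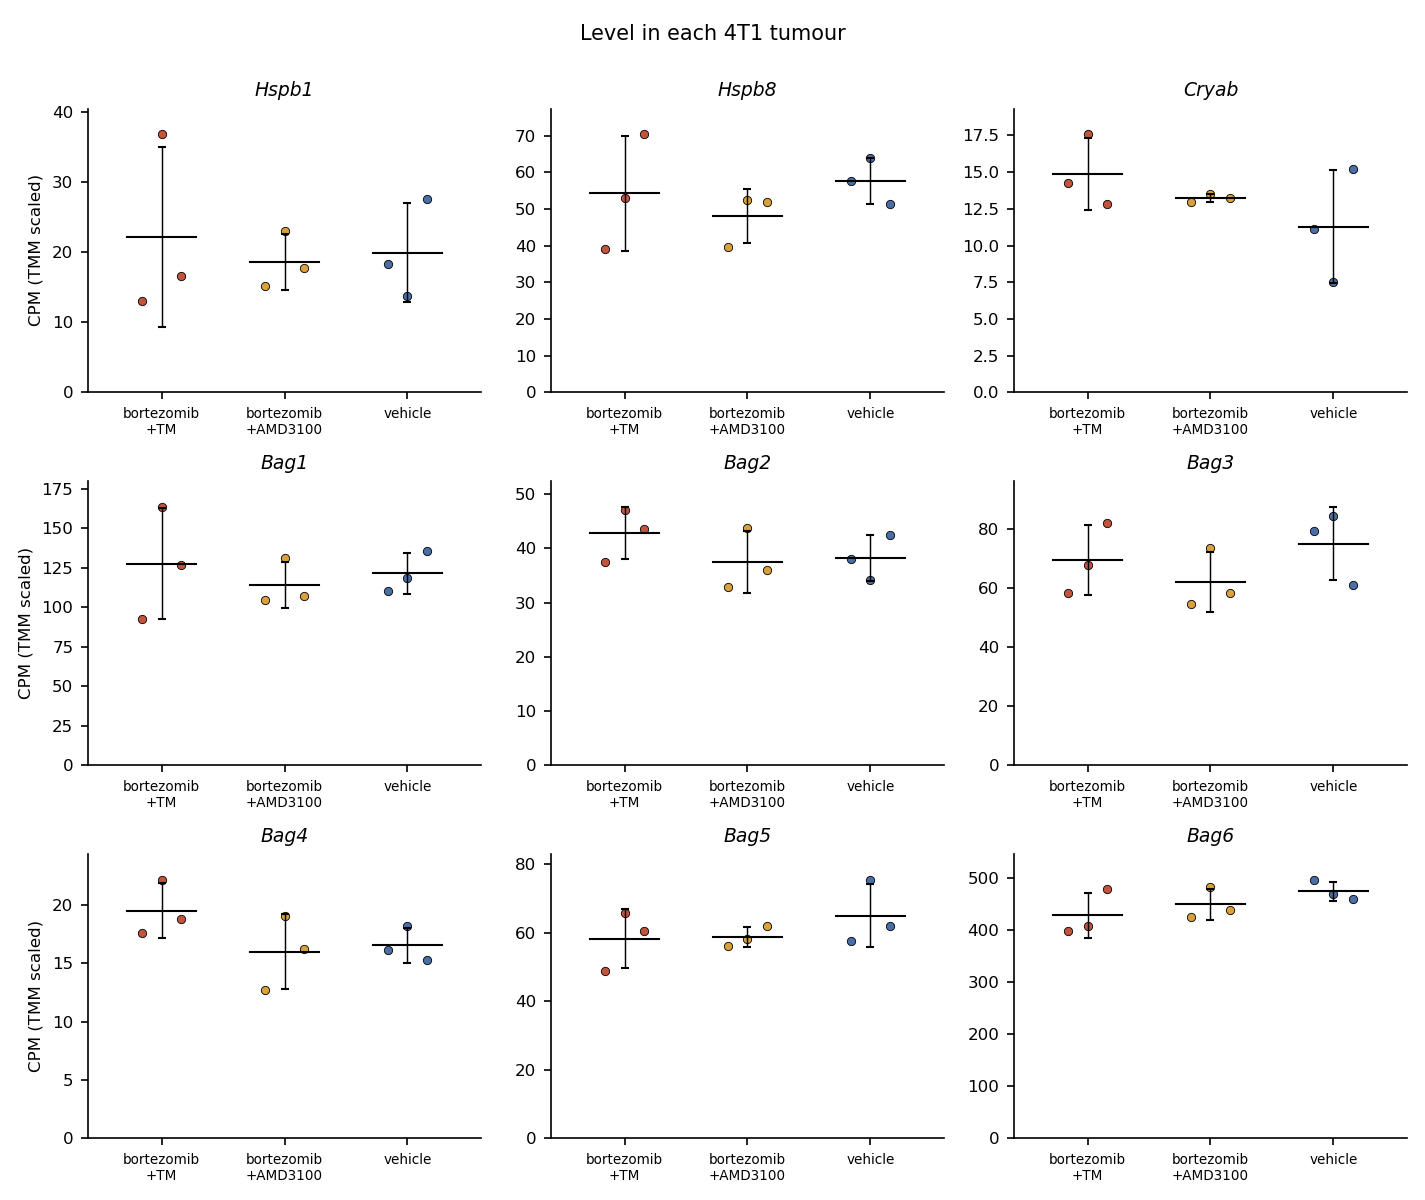
CPM of the mouse orthologs in each 4T1 tumour (y axis, linear scale), with the group mean as a line and SD as error bars. The treated and vehicle tumours overlap, as for Hspb8, with 39.2 to 70.4 CPM under bortezomib with TM, 39.7 to 52.5 CPM under bortezomib with AMD3100 and 51.2 to 64.0 CPM under vehicle.

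Several of these genes are abundant in muscle, which a tumour sample can include. The 12 skeletal muscle markers summed to 43.0 to 68.7 CPM under bortezomib with TM, 51.9 to 53.9 CPM under bortezomib with AMD3100 and 59.0 to 93.3 CPM in vehicle tumours, and Tnni2 gave most of this, while Ckm, Myh4 and Pvalb were at or near 0. The 7 markers of smooth muscle and myoepithelium summed to 360.1 to 477 CPM, 429 to 477 CPM and, in vehicle tumours, 339 to 445 CPM. For relations with the 9 genes, the marker level was the mean log2 CPM of a list, not its sum. Permutations ran over all 9 tumours without regard to group, so differences between groups enter the relations. Over the 9 tumours and 18 relations of a gene with one of these lists, none passed Benjamini-Hochberg adjustment of exact two-sided permutation tests. The strongest was that of Bag3 with the smooth muscle list (Pearson r = -0.857, exact p = 0.00445, adjusted p = 0.0643; Spearman rho = -0.883, exact p = 0.00308, adjusted p = 0.0554), and r was -0.737 without the 2 tumours farthest from the median marker level. Hspb8 had r = -0.819 (exact p = 0.00714, adjusted p = 0.0643; Spearman rho = -0.767, exact p = 0.0214, adjusted p = 0.128) and r = -0.725 without those 2. Bag6 had r = -0.753 with the same list (exact p = 0.0216, adjusted p = 0.124) and r = -0.868 without those 2. Cryab went the other way, with r = 0.707 (exact p = 0.0276, adjusted p = 0.124) and r = 0.609 without those 2.

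The genes whose log2 CPM followed HSPB8 most closely over the 9 MDA-MB-231 libraries were HSP90AB1, RHEBL1, HERPUD1, GADD45A and ATF3 (Pearson r of 0.9988 to 0.9992). For BAG3 they were SOX18, ZFAND3, NFKB2, UNKL and JMJD6 (0.9969 to 0.9981), and for BAG5 ANKFY1, MAGI1, NSD1, NT5DC3 and APPL2 (0.9925 to 0.9942). In HCC1937 they were RBM39, ELF3, TGFBR2, SREK1 and STOM for HSPB8 (0.9908 to 0.9980) and RUNX1, VSIR, TGFBR2, CNNM2 and LAPTM4A for BAG3 (0.9781 to 0.9862). These values describe 9 libraries that share groups and depth, those of HCC1937 include replicate 1 under AMD3100, and the MDA-MB-231 values rest on the gap between treated and vehicle libraries.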

How the data were processed

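Analysis started from whole-number read counts per gene, as the authors deposited them, in 1 table per dataset. The submitters' processing notes name featureCounts 2.0.1, MultiQC 1.11 and the builds GRCh38 and GRCm38. Per the labels, RNA was extracted in Trizol, enriched for poly(A) and sequenced as read pairs. The aligner, the annotation and the use of strand are not given in the sources used here. Of counts between 1 and 20, 56.9% to 66.1% were even, so mates may in part have been counted singly and precision may be overstated. Human symbols came from an identifier table (61481 of 78932 features) and positions from the GENCODE annotation of GRCh38. No mouse positions were used.

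Each dataset was fitted over its 9 libraries with edgeR 4.0.16 in R 4.3.3, with 1 coefficient per group (filterByExpr, TMM, quasi-likelihood F test, Benjamini-Hochberg over all tested genes), and lines were compared in a fit of 18. The common biological coefficient of variation was 0.339 for HCC1937, 0.204 for MDA-MB-231 and 0.316 for 4T1. SE is the absolute log2 change over the square root of F. Levels are CPM with TMM scaling, and likeness used log2 CPM with a prior count of 2. The test was also run on data simulated with the means and spread of the vehicle libraries, so without the spread of replicate 1 under AMD3100. Its outcome is not given here and is no support for the calls. DESeq2 1.42.0, limma-voom (limma 3.58.1), other scalings, no filter, a replicate block, groups fitted alone and leaving out each library were alternatives. All 9 genes are named, with up to 4 called genes of smallest p per list, or the 2 of highest CPM where fewer than 2 were called, and the 5 genes most like a gene. STUB1, UBQLN2 and the marker genes were named after their values were seen. The members and lists were chosen with earlier results of these data known.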

Additional observations from a re-analysis of the deposited data

Results flagged for a closer look

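The change against vehicle differed between the lines, by the test of the difference itself in the fit of all 18 human libraries, for the genes below. Values are log2, MDA-MB-231 with bortezomib minus HCC1937 without it, so line and bortezomib cannot be told apart. In the TM arm the difference was 3.16 for HSPB8, 1.76 for HSPB1, 1.63 for BAG3, 1.40 for BAG1 and -1.40 for BAG5. In the AMD3100 arm it was 4.47 for HSPB8, 2.11 for BAG3, 1.79 for HSPB1, 0.96 for BAG1, 0.71 for BAG6 and -1.06 for BAG5. Without replicate 1 of HCC1937 under AMD3100 the AMD3100 arm gave 4.45 for HSPB8, 2.09 for BAG3, 1.43 for HSPB1, 0.74 for BAG1, 0.55 for BAG6 and -1.21 for BAG5, all called. The BAG6 call in the AMD3100 arm was lost in 9 of 18 alternatives, among them median-of-ratios scaling (0.68, adjusted p = 0.0524), library totals without TMM factors (0.36, adjusted p = 0.221), the replicate block (0.74, adjusted p = 0.0645) and leaving out any 1 HCC1937 vehicle library. BAG1 in that arm lost its call with library totals (0.61, adjusted p = 0.0539).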

How the results depend on the processing

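Of 169 alternatives for the number of the 9 genes called in a comparison, 153 stayed within 1.5 times the reported number. The exceptions were in HCC1937. For TM against vehicle the number was 2, and it was 1 with no filter on low counts, 1 with the replicate number as a block and 8 with the compared groups fitted alone. Leaving out 1 library gave 1 to 8 for that comparison, 8 without replicate 1 under AMD3100 and 1 without any one of the TM or vehicle libraries. It gave 0 to 1 for AMD3100 against vehicle, and 1 to 7 for AMD3100 against TM, which was 1 with the compared groups fitted alone. Replicate numbers did not pair the libraries (same-number correlations of -0.04 to 0.04 in HCC1937, -0.32 to 0.29 in MDA-MB-231 and -0.47 to 0.597 in 4T1), and the block otherwise gave 2 for AMD3100 against TM in HCC1937 and 5 for the AMD3100 arm difference. For HSPB1, AMD3100 against TM in HCC1937 was -0.10, and it ran over -0.36 to 0.27 when 1 library was left out, turning sign without replicate 1 under AMD3100. BAG6 in the TM arm difference was 0.52 and not called, and it was -0.0143 with library totals in place of TMM factors, where the median of all genes was -0.58. CRYAB in the TM arm difference was 0.61, and it ran over -0.0926 to 5.04 when 1 library was left out, the lowest without replicate 3 under bortezomib with TM and the highest without vehicle replicate 1 of MDA-MB-231. Of 767 alternatives for 52 single results, 707 kept direction and call, 31 lost the call, 26 gained one and 3 turned sign. 53 further results were never called.

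The number of all genes called moved more. For TM against vehicle in HCC1937 it was 1376, against 718 with the block, 2632 by DESeq2, 8336 with groups fitted alone and 406 to 8318 without 1 library. For AMD3100 against vehicle it was 0, against 161 with no filter, 39 by DESeq2 and 1661 without replicate 1 under AMD3100. For AMD3100 against TM it was 1599, against 725 with the block, 3205 by DESeq2, 252 with groups fitted alone and 373 to 7442 without 1 library. Between the MDA-MB-231 arms it was 0, against 177 with no filter, 52 by DESeq2 and 183 without replicate 3 under bortezomib with TM. For the TM arm difference it was 4674, against 7382 without replicate 1 of HCC1937 under AMD3100. The cause was not tested. CRYAB had no more than 10 counts in any MDA-MB-231 library, which limits the precision of its comparisons in that line.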
